A study of Mus musculus with 18 samples.

Results

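The plasminogen activator system was followed through 9 of the 48023 genes in the count table. These were the activators Plau and Plat, the cell surface receptor Plaur, the serpins Serpinb2, Serpine2 and Serpinf1, the plasminogen-binding pair Anxa2 and S100a10, and the clearance receptor Lrp1. The set was chosen by the rise of Serpinb2 over vehicle at 4 and 8 h, so Serpinb2 is given as a description with no p, and the other 8 genes entered by family. All 9 were among the 15071 genes with enough counts to be tested. RNA-seq was performed on undifferentiated brown preadipocytes, precursors of heat-producing fat cells, from a mouse line made immortal with the SV40 T antigen. The cells received either vehicle or the secreted growth factor FGF6 at 200 ng/ml and were collected after 4, 8 or 24 h, with 3 libraries in each of the 6 groups (labelled Veh and FGF6 with 4h, 8h or 24h). Every group carried the T antigen and came from the same line, and whether the 3 libraries of a group came from separate cultures is not stated in the sources used here, so p-values measure only the spread between these libraries.

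Plasminogen is an inactive precursor that circulates in blood, and the serine proteases encoded by Plau (urokinase, uPA) and Plat (tissue plasminogen activator, tPA) cut it into plasmin, which dissolves fibrin, degrades matrix proteins and activates other proteases. Urokinase is held at the cell surface by its receptor, encoded by Plaur, while plasminogen itself docks on surface proteins such as the annexin A2 and S100A10 complex. Serpins are suicide inhibitors that trap their target protease. Serpinb2 encodes PAI-2, an inhibitor of urokinase that is largely kept inside cells, and Serpine2 encodes protease nexin 1, which blocks thrombin, urokinase and tPA. Serpinf1 encodes PEDF, which has the serpin fold but inhibits no protease and is known as a secreted factor of preadipocytes and as a blocker of vessel growth. The large endocytic receptor LRP1 takes up protease and inhibitor complexes from the surface.

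The libraries held 24327816 to 33471980 counts, and 3 counts, taken as the floor of detection, corresponded to 0.0905 to 0.126 CPM, the counts scaled to a common library total. Vehicle replicate 3 at 24 h stood apart from its partners, with a chi-square per degree of freedom of 34.5 and 37.6 against 2.34 to 7.05 in the other pairs of libraries of a group, and it held 10580 CPM of the gene CT010467.1 against 80.1 to 171.8 CPM in the other 17 libraries. Results at 24 h were therefore also computed without it. Its part in the results beyond that was not tested. Of 8 preadipocyte and stromal markers, 7 were detected in all libraries while Dlk1 was at 0 counts throughout, and their summed level was 5516 to 5868 CPM in vehicle and 3349 to 3600 CPM in FGF6-treated libraries at 4 h, 7963 to 8401 and 3769 to 4057 CPM at 8 h, and 8351 to 8955 and 1319 to 1458 CPM at 24 h. Most of it was Col1a1 and Col1a2 (3107 and 4193 CPM in vehicle at 24 h, 443.3 and 573.2 CPM with FGF6), while Cd34 was at 16.5 and 43.0 CPM and Thy1 at 63.6 and 55.7 CPM. The part of these markers in the results was not tested. The 5 FGF response genes Dusp6, Spry2, Spry4, Etv4 and Etv5 were higher with FGF6 at each time, with a median log2 fold change of 2.96, 3.27 and 3.02.

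The 250 bases before the transcription start were searched for motifs in the 6 of the 9 genes with a RefSeq entry (GRCm38.p6). The windows of 3 genes held an AP-1 motif (TGANTCA, searched on both strands), and they are shown because all 3 genes were higher at 4 h with FGF6. Plau, Plat and S100a10 had no entry, and of these Plat and S100a10 were also higher at 4 h, so the motif could not be set against the early rise over the whole set. Capitals mark the AP-1 motif and, in Serpinb2, the TATA box motif TATAAA. Serpinb2 lies on chr1:107511173-107511422, Plaur on chr7:24462233-24462482 and Anxa2 on chr9:69453433-69453619, all on the plus strand, with the Anxa2 stretch ending where GENCODE begins the gene.
Serpinb2: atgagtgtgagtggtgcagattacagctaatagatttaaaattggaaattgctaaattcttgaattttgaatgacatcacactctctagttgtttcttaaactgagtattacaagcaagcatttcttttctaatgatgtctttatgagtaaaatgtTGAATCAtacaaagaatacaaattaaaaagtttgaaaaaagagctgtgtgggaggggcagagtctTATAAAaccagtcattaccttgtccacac
Plaur: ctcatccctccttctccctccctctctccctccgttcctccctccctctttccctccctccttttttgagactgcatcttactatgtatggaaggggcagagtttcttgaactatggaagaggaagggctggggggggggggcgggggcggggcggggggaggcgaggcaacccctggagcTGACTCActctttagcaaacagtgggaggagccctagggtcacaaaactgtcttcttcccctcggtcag
Anxa2: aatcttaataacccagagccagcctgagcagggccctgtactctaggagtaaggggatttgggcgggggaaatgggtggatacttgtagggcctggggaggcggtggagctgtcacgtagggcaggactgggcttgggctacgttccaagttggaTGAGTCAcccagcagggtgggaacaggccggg
The AP-1 motif lay 94 to 88 bases upstream of the first of the 2 Serpinb2 starts listed, 69 to 63 bases upstream in Plaur and 95 to 89 bases upstream in Anxa2. TATAAA, searched on the plus strand of the gene, lay 29 to 24 bases upstream in Serpinb2 and 17 to 12 bases upstream in the unprinted end of the Anxa2 window. Across 32851 promoter windows of the same length, 6.75% held this motif and 12.4% held TATAAA. The windows of Serpine2, Serpinf1 and Lrp1 held neither, and none of the 6 held the cyclic AMP response motif TGACGT or the ETS motif CCGGAA, searched on both strands, which were found in 6.47% and 12% of all windows. These are matches of letters and were not tied to binding in these cells.

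At 4 h of FGF6, Plaur, Plat, Anxa2 and S100a10 rose, Lrp1 fell, and Plau, Serpine2 and Serpinf1 did not pass the test. At 8 h Plau had joined the genes that rose and Serpinf1 those that fell. At 24 h, of the 8 genes entered by family, Plau and Plaur were higher and the other 6 were lower. Of those 6, Plat, S100a10 and Anxa2 had been higher at 8 h, while Serpinf1 and Lrp1 had already been lower. Anxa2 overlapped between the groups at 24 h and lost its call there in several alternatives. A gene was called where the adjusted p of edgeR's quasi-likelihood test (Benjamini-Hochberg, over all genes tested) was under 0.25, the threshold of the study, and 75.7% of all genes were called at 4 h, 82.1% at 8 h and 83.4% at 24 h. Of the 8 genes, 4 rose and 1 fell at 4 h, 5 rose and 2 fell at 8 h, and 2 rose and 6 fell at 24 h, so the share called, read against those of all genes, was not itself a feature of the set. With an adjusted p under 0.05, 1 fell at 8 h, where Lrp1 was no longer called, and 5 fell at 24 h, where Anxa2 was not. The shares of all genes that rose were 33.9%, 37.8% and 40.5%, and the shares that fell 41.8%, 44.4% and 42.9%. The median log2 fold change of the 8 was 0.21 at 4 h, 0.35 at 8 h and -0.26 at 24 h, beside -0.05, -0.05 and -0.02 over all genes. With an adjusted p under 0.05 and at least a 2-fold change, which 11.3%, 18.3% and 22.8% of all genes met at the 3 times, Plaur was the one gene of the 8 that passed, and did so at each time. The effect of FGF6 itself differed between 8 and 4 h in 4 of the 8 genes and between 24 and 8 h in 6 of them (edgeR, adjusted p under 0.05), beside 30.6% and 45.1% of all genes.

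**Figure D1:**
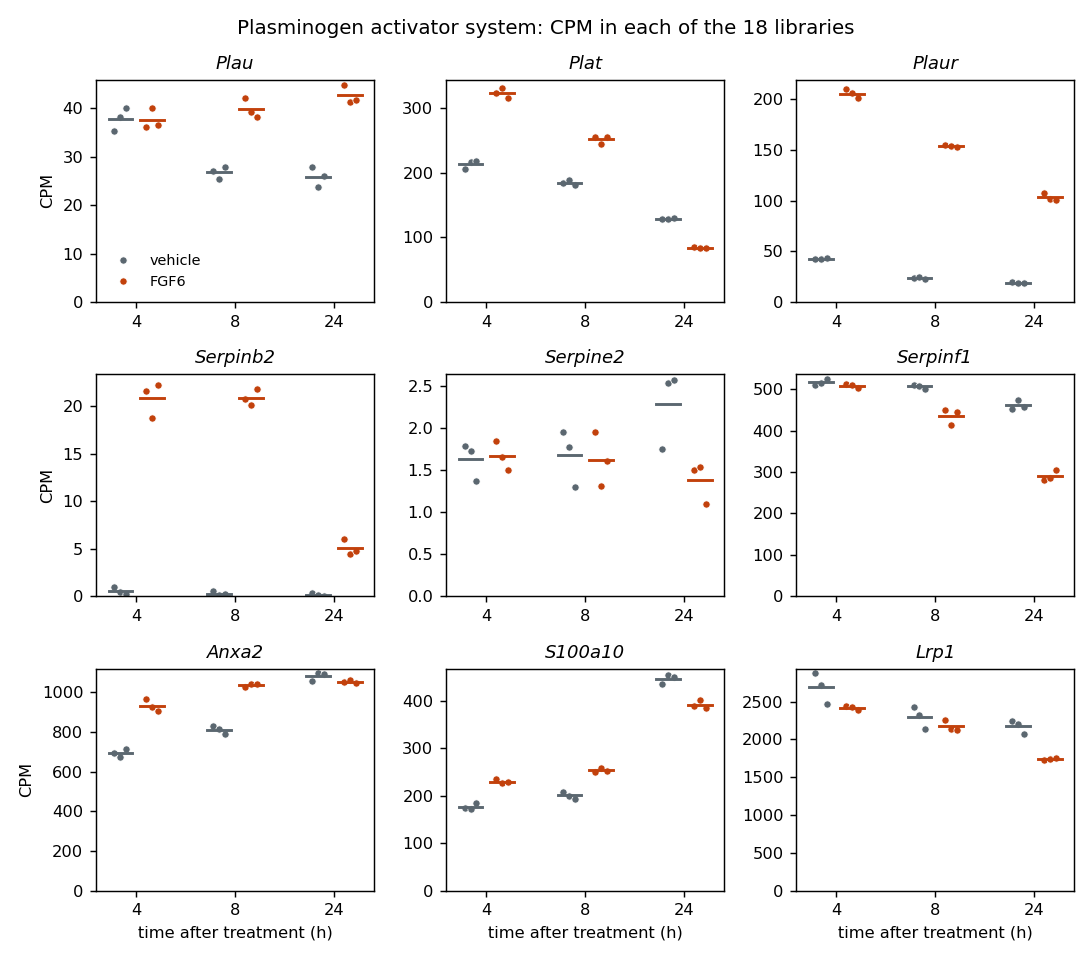
CPM of each of the 9 genes against time after treatment (h), with a point for each of the 18 libraries and a line at the mean of each group of 3. Plaur was higher in every FGF6 library than in any vehicle library, Plat crossed from above to below the vehicle libraries between 8 and 24 h, and Serpinb2 was near 0 in vehicle.

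Plaur (chr7:24462484-24475968, plus strand, GRCm38) encodes uPAR, the receptor that concentrates urokinase at the surface. In vehicle its level was 42.4, 42.1 and 43.4 CPM at 4 h against 209.6, 206.1 and 201.0 CPM with FGF6. At 8 h the vehicle libraries held 23.5, 24.4 and 22.9 CPM and the FGF6 libraries 154.7, 154.0 and 153.2 CPM. At 24 h the values were 20.04, 18.6 and 18.6 CPM in vehicle and 107.6, 102.0 and 100.3 CPM with FGF6. The lowest FGF6 library of any time was thus above the highest vehicle library of any time. The fold changes were 4.82, 6.53 and 5.41, with log2 values of 2.27 ± 0.04 (SE; adjusted p = 9.32e-25), 2.71 ± 0.04 (4.31e-26) and 2.44 ± 0.04 (3.49e-25). Ranked by rise among all genes tested, Plaur stood at place 171, 219 and 290.

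The Plaur level went down with time in both arms. Over all genes, 59.4% were called between 4 and 8 h and 67% between 8 and 24 h in vehicle, and 64.3% and 76.2% with FGF6. In vehicle it fell 1.81-fold from 4 to 8 h (adjusted p = 1.94e-14) and 1.24-fold from 8 to 24 h (4.01e-06). With FGF6 the falls were 1.33-fold (1.38e-10) and 1.49-fold (2.02e-13). The vehicle level thus dropped by more than the FGF6 level over the first interval, and the log2 effect of FGF6 was larger at 8 h than at 4 h by 0.44 ± 0.05 (adjusted p = 6.86e-07), and it was then smaller at 24 h than at 8 h by a difference of -0.27 ± 0.06 (0.00036).

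Plau (chr14:20836660-20843385, plus strand), which encodes urokinase itself, did not pass the test at 4 h. At 4 h it stood at 35.3, 38.1 and 40.03 CPM in vehicle and at 36.2, 40.1 and 36.6 CPM with FGF6, and the groups overlapped. The log2 fold change was -0.00 (95% interval -0.12 to 0.11; adjusted p = 0.959), its sign depended on the scaling used, and with library sizes alone it was called (-0.11, 0.127). At 8 h the vehicle libraries held 27.0, 25.4 and 27.9 CPM and the FGF6 libraries 42.1, 39.3 and 38.2 CPM, a 1.49-fold difference (log2 0.58 ± 0.06, adjusted p = 7.59e-09). At 24 h the levels were 27.9, 23.7 and 26.1 CPM against 44.8, 41.3 and 41.8 CPM, which was 1.65-fold (0.72 ± 0.06, 1.13e-10). Neither later comparison had overlapping libraries.

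The Plau difference at 8 h arose with a change in the vehicle cells. Plau fell 1.41-fold in vehicle between 4 and 8 h (adjusted p = 3.34e-07), while in FGF6-treated cells its level over the same interval differed by 0.08 ± 0.06 on the log2 scale, which did not pass the test (0.28). That difference did pass with library sizes (0.14, 0.0486), upper-quartile factors (0.10, 0.158) or only the libraries compared (0.08, 0.21), and without FGF6 replicate 2 at 4 h (0.14, 0.105) or replicate 3 at 8 h (0.11, 0.175). The effect of FGF6 was larger at 8 h than at 4 h by 0.58 ± 0.09 (1.18e-05).

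Plat (chr8:22757727-22782844, plus strand), the gene of tissue plasminogen activator, changed direction. At 4 h it was at 206.0, 217.2 and 218.0 CPM in vehicle and at 323.0, 331.4 and 315.3 CPM with FGF6, a 1.51-fold rise (log2 0.60 ± 0.03, adjusted p = 1.21e-14). At 8 h it was at 183.4, 189.0 and 181.0 CPM against 255.1, 244.7 and 254.5 CPM, a 1.36-fold rise (0.45 ± 0.03, 2.64e-12). At 24 h the vehicle libraries held 127.9, 128.0 and 129.9 CPM and the FGF6 libraries 84.7, 83.2 and 83.9 CPM, a 1.53-fold fall (-0.62 ± 0.03, 7.44e-15). The groups did not overlap at any time, and the side on which the FGF6 libraries lay was reversed at 24 h. The difference between the effects at 24 and 8 h was -1.06 ± 0.05 (adjusted p = 8.61e-16), and without vehicle replicate 3 the log2 fold change at 24 h was -0.57. Over the whole course Plat fell in vehicle too, by 1.16-fold from 4 to 8 h (4.72e-06) and 1.44-fold from 8 to 24 h (1.43e-12), but in FGF6-treated cells the second fall was 2.99-fold (1.13e-22).

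**Figure D2:**
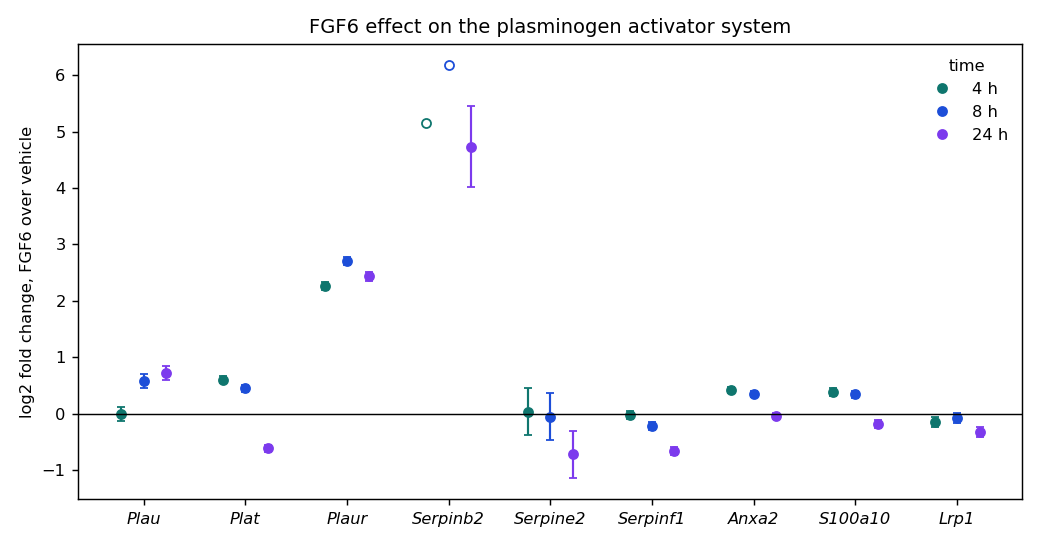
Log2 fold change of FGF6 over vehicle at 4, 8 and 24 h for the 9 genes, with bars of an approximate 95% interval computed from the SE of the edgeR fit. Open points without bars are Serpinb2 at 4 and 8 h. The bar of Serpinb2 at 24 h is a description of spread and no test, because the gene had enough counts only through the FGF6 libraries. Plaur lay between 2.27 and 2.71, Serpinb2 between 4.74 and 6.19, and Plat, Anxa2 and S100a10 moved from above 0 to below it at 24 h, where the value of Anxa2 was -0.04.

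The level of receptor transcript relative to its ligand was followed within each library as a ratio of counts per exonic length, a measure chosen after the values were seen and independent of the scaling between libraries. In vehicle the Plaur to Plau ratio was 1.02 ± 0.057 at 4 h, 0.80 ± 0.065 at 8 h and 0.67 ± 0.036 at 24 h (SD, n = 3). With FGF6 it was 4.95 ± 0.29, 3.5 ± 0.16 and 2.19 ± 0.036. The receptor transcript therefore outnumbered that of urokinase in every FGF6 library, most so at 4 h. The Plat to Plau ratio went from 2.15 ± 0.076 in vehicle to 3.26 ± 0.12 with FGF6 at 4 h, and from 1.89 ± 0.15 to 0.75 ± 0.026 at 24 h, while the order of the activators at 24 h of FGF6 depended on the length used. On merged exons Plau stood at 18.01 FPKM (CPM divided by exonic length in kilobases) and Plat at 13.5 FPKM, and by the longest transcript they stood at 18.2 and 20.8 FPKM. The order of Plaur and Plau in vehicle at 8 h also depended on the length. By the longest transcript they stood at 21.2 and 16.1 FPKM at 4 h, 11.7 and 11.4 at 8 h, and 9.50 and 11.1 at 24 h in vehicle.

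**Figure D3:**
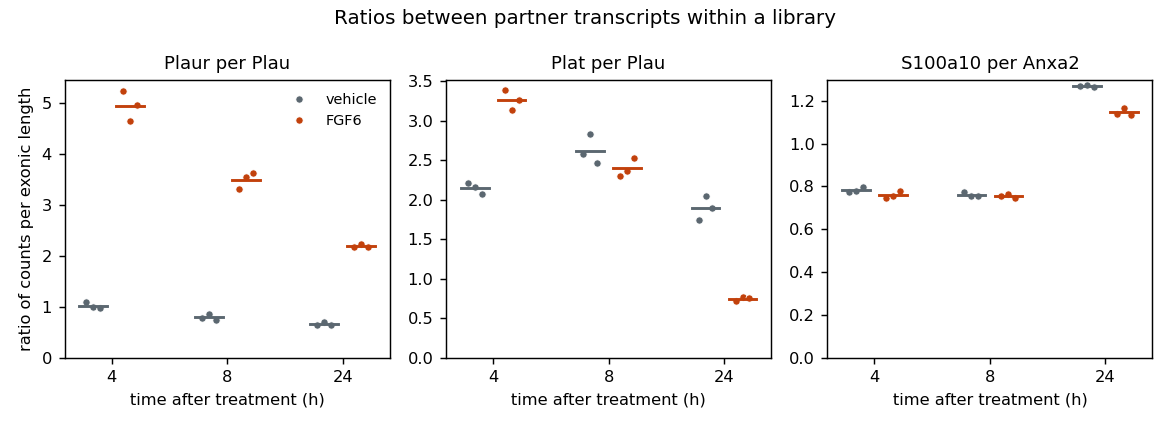
Ratios of counts per exonic length between partner genes in each library against time after treatment (h), with lines at the means of 3 libraries. Plaur per Plau was between 4.65 and 5.24 in the FGF6 libraries at 4 h, Plat per Plau fell to a mean of 0.75 at 24 h of FGF6, and S100a10 per Anxa2 was at a mean of 1.27 in vehicle and 1.15 with FGF6 at 24 h.

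Serpinb2 (chr1:107511423-107535478, plus strand), the gene of PAI-2 and the reason for the choice of the set, was near the floor without FGF6. At 4 h the vehicle libraries held 31, 14 and 9 counts (1.00, 0.43 and 0.30 CPM) and the FGF6 libraries 584, 589 and 547 counts (21.6, 18.8 and 22.2 CPM). At 8 h there were 17, 3 and 6 counts in vehicle (0.54, 0.095 and 0.21 CPM) and 637, 597 and 529 with FGF6 (20.7, 20.1 and 21.7 CPM). Every FGF6 library thus stood far above every vehicle library, and the FGF6 level was alike at both times. The fitted folds were 35.7 at 4 h and 72.9 at 8 h, with Serpinb2 at place 11 and 10 of all genes by rise. Their size turned on the few vehicle counts: without vehicle replicate 1 the log2 value went from 5.16 to 5.80 at 4 h and, for 8 h, from 6.19 to 7.09, and without vehicle replicate 2 it was 5.77 at 8 h.

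By 24 h the FGF6 level of Serpinb2 had come down to 166, 124 and 131 counts (6.06, 4.43 and 4.81 CPM), beside 10, 6 and 0 counts in vehicle (0.35, 0.18 and 0 CPM, where a count of 0 allows up to 0.126 CPM). The fitted fold at this time was 26.7 (log2 4.74 ± 0.36, SE), given with no p because the gene had enough counts to be tested only through the FGF6 libraries. Without vehicle replicate 3 the value was 4.31, and without replicate 1 it was 5.58. Between 8 and 24 h of FGF6 the level went down 4.08-fold, against 1.49-fold for Plaur over the same interval. Per Plau transcript, Serpinb2 stood at 0.56 ± 0.078 at 4 h, 0.53 ± 0.041 at 8 h and 0.12 ± 0.014 at 24 h in FGF6-treated cells (SD, n = 3), and at 0.016 ± 0.011, 0.010 ± 0.0085 and 0.0068 ± 0.0064 in vehicle. Of its 2349 exonic bases, 291 are shared on the same strand with Serpinb10, which had 0 counts in all 18 libraries.

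The genes whose log2 CPM followed Serpinb2 most closely over the 18 libraries were Clip2 (Pearson r = 0.990), Gramd4 (0.989), Rps6ka4 (0.989), Reps1 (0.986) and Nav3 (0.985). They shared with it a level that was high at 4 and 8 h of FGF6 and lower at 24 h, but with smaller steps, such as 104.0 to 250.2 CPM for Clip2 at 4 h. Within the set, Plaur was the most alike at 0.969, place 74 of 15070, followed by Plau at 0.70, and the other 6 lay between -0.33 and 0.40. These points share treatment, time and library, so the coefficients are a description.

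Serpine2 (chr1:79794197-79861180, minus strand), the gene of protease nexin 1, was expressed at a low level and did not pass the test at 4 or 8 h. At 4 h it had 55, 56 and 41 counts in vehicle and 50, 52 and 37 with FGF6, and at 8 h 62, 56 and 38 against 60, 39 and 39. The log2 fold changes were 0.04 ± 0.22 (adjusted p = 0.897) and -0.05 ± 0.22 (0.838). Their 95% intervals ran from -0.39 to 0.46 and from -0.47 to 0.37, so changes within these limits remain possible. At 24 h the vehicle libraries held 1.75, 2.53 and 2.56 CPM and the FGF6 libraries 1.495, 1.54 and 1.10 CPM, without overlap, a 1.65-fold fall (-0.72 ± 0.22, 0.00404).

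Serpinf1 (chr11:75409769-75422701, minus strand), the gene of PEDF, fell later and in steps. At 4 h it stood at 510.3, 515.4 and 524.1 CPM in vehicle and 512.0, 511.1 and 502.3 CPM with FGF6 (log2 -0.02 ± 0.03, adjusted p = 0.586). At 8 h the levels were 510.6, 508.9 and 501.0 CPM against 449.0, 412.6 and 445.0 CPM, a 1.16-fold fall (-0.22 ± 0.03, 3.30e-06). At 24 h they were 452.1, 473.6 and 456.3 CPM against 280.7, 285.5 and 303.8 CPM, a 1.59-fold fall (-0.67 ± 0.03, 3.60e-15). The groups overlapped at 4 h only. Each step of the effect passed its own test, with a difference of -0.20 ± 0.05 between 8 and 4 h (0.00289) and of -0.45 ± 0.05 between 24 and 8 h (3.35e-08).

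Anxa2 (chr9:69453620-69491795, plus strand) and S100a10 (chr3:93555080-93564643, plus strand) encode the annexin and its small S100 partner that form a docking site for plasminogen and tPA. Anxa2 was at 696.9, 676.4 and 713.3 CPM in vehicle and 967.3, 924.9 and 907.5 CPM with FGF6 at 4 h, a 1.34-fold rise (log2 0.42 ± 0.03, adjusted p = 1.84e-12). S100a10 was at 175.0, 171.6 and 184.4 CPM against 234.7, 227.1 and 229.3 CPM, a 1.302-fold rise (0.38 ± 0.03, 4.66e-10). Both genes were thus higher to a like extent in every FGF6 library at 4 h. At 8 h the rises were 1.28-fold for Anxa2 (0.35 ± 0.03, 4.10e-11) and 1.27-fold for S100a10 (0.34 ± 0.03, 2.44e-09), again without overlap.

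At 24 h the rise of the pair was gone. Anxa2 was at 1058, 1099 and 1095 CPM in vehicle and 1051, 1061 and 1048 CPM with FGF6, and the libraries overlapped. Its log2 difference of -0.04 ± 0.03 passed the threshold (adjusted p = 0.196) but changed sign when any of 4 libraries was left out, to 0.0046 or 0.0039 without FGF6 replicate 1 or 3 and to 0.011 or 0.0068 without vehicle replicate 2 or 3. Without vehicle replicate 1 it was -0.017 and the call was lost (0.639). S100a10 was at 436.9, 454.3 and 450.2 CPM against 389.3, 402.5 and 385.4 CPM, a 1.14-fold fall (-0.19 ± 0.03, 1.94e-05) with no overlap. The change of effect between 8 and 24 h was -0.39 ± 0.04 for Anxa2 (1.34e-08) and -0.53 ± 0.05 for S100a10 (1.67e-09).

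The pair also moved with time in culture. In vehicle, S100a10 rose 2.22-fold between 8 and 24 h (adjusted p = 1.53e-18), while Anxa2 rose 1.33-fold (1.12e-11). With FGF6 over the same interval S100a10 rose 1.54-fold (3.42e-14), and for Anxa2 the log2 difference of 0.02 ± 0.03 did not pass the test (0.51). Per length, there were 0.78 ± 0.012 S100a10 transcripts for each of Anxa2 in vehicle at 4 h and 0.76 ± 0.016 with FGF6 (SD, n = 3). At 24 h the ratio was 1.27 ± 0.0035 in vehicle and 1.15 ± 0.019 with FGF6. Of the exonic bases of Anxa2, 98 lie opposite Gm16144, and the strand setting used in counting is not given in the sources used here.

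Lrp1 (chr10:127538161-127621148, minus strand), whose protein clears protease and inhibitor complexes together with uPAR, was the most abundant of the 9 in CPM and changed little. At 4 h it was at 2878, 2724 and 2468 CPM in vehicle and 2447, 2433 and 2384 CPM with FGF6, a 1.11-fold fall (log2 -0.15 ± 0.04, adjusted p = 0.00354), with the groups just apart. At 8 h the levels of 2425, 2323 and 2131 CPM against 2260, 2134 and 2124 CPM overlapped. The log2 difference was then -0.08 ± 0.04 (0.109), and the call was lost without vehicle replicate 1 (-0.04, 0.492) or FGF6 replicate 2 or 3 (-0.06, 0.258, and -0.02, 0.754). At 24 h Lrp1 was at 2239, 2206 and 2078 CPM against 1722, 1747 and 1748 CPM, a 1.25-fold fall without overlap (-0.32 ± 0.04, 2.76e-07).

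Levels between genes were compared per exonic length, as FPKM on merged exons. In vehicle at 4 h the order was Serpinf1 (219.0 FPKM), Anxa2 (186.4), Lrp1 (151.8), S100a10 (146.0), Plat (34.3), Plaur (16.3), Plau (16.0), Serpinb2 (0.25) and Serpine2 (0.20). The neighbours Lrp1 and S100a10, Plaur and Plau, and Serpinb2 and Serpine2 overlapped in that order. With FGF6 at 4 h Anxa2 led at 250.1 FPKM, Plaur at 78.6 FPKM had passed Plat at 51.8 FPKM, and Serpinb2 at 8.88 FPKM lay below Plau at 15.9 FPKM, with no overlap between any neighbours. At 24 h of FGF6 S100a10 led at 323.7 FPKM, followed by Anxa2 (282.3), Serpinf1 (122.9), Lrp1 (98.2), Plaur (39.5), Plau (18.01), Plat (13.5), Serpinb2 (2.17) and Serpine2 (0.17), again with no neighbours overlapping. Parts of these orders turned when the longest transcript was used as the length. Anxa2 (305.1 FPKM) then led Serpinf1 (282.0), S100a10 (258.3) and Lrp1 (180.7) in vehicle at 4 h, and Serpine2 (0.48) lay above Serpinb2 (0.29). With FGF6 S100a10 (336.3) then lay above Serpinf1 (277.5) at 4 h, and Plat (20.8) above Plau (18.2) at 24 h.

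**Figure D4:**
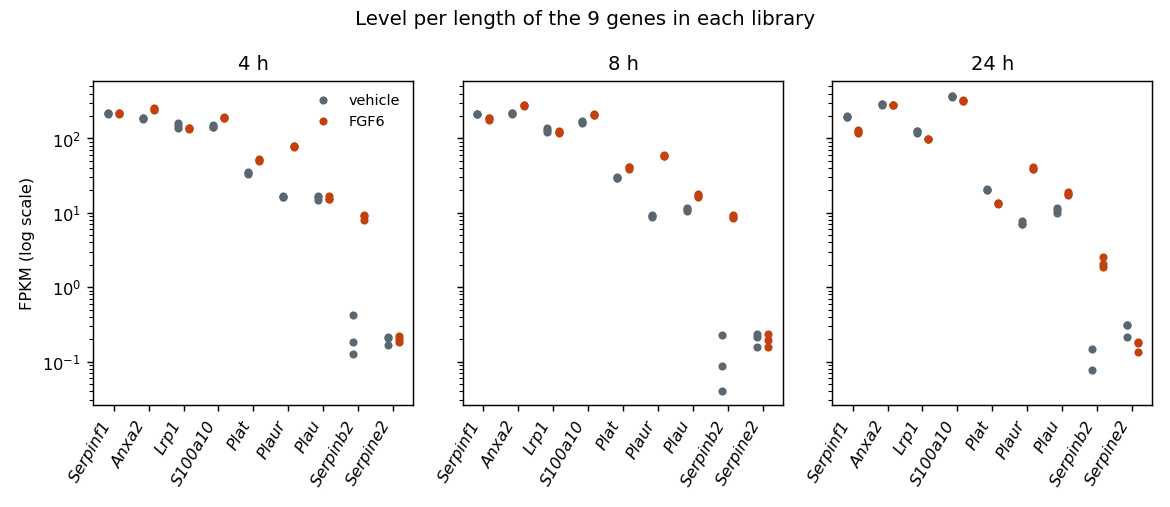
FPKM of the 9 genes on a log scale in each library at 4, 8 and 24 h, ordered by the vehicle level at 4 h. The vehicle library with 0 counts of Serpinb2 at 24 h cannot be drawn on a log axis and is left out. Serpinb2 and Serpine2 lay below 0.5 FPKM in all vehicle libraries, and Serpinb2 reached a mean of 8.88 FPKM with FGF6 at 4 h.

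Plasminogen itself was all but absent, with a single count of Plg over the 18 libraries. Of 11 genes listed for the activation and inhibition of plasminogen, 10 were in the table and 3 had enough counts to be tested, all of them serpins. Serping1, the gene of C1 inhibitor, which blocks plasma kallikrein and complement proteases, stood at 5.79 ± 0.63 and 5.68 ± 0.79 CPM at 4 h and fell at 8 h (log2 -1.03 ± 0.19, adjusted p = 2.36e-05) and at 24 h (-1.72 ± 0.26, 1.60e-06). Serpini1, the gene of neuroserpin, an inhibitor of tPA, fell at 4 h (-0.68 ± 0.13, 3.79e-05) and 8 h (-0.84 ± 0.12, 8.64e-07) and was higher at 24 h (0.29 ± 0.10, 0.0143). Serpinf2, the gene of the plasmin inhibitor alpha2-antiplasmin, had 1 to 11 counts per library. These were named after their values were seen.

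Of 12 plasminogen-binding proteins and integrins listed as plasminogen receptors, 11 were tested, and 8 rose at 4 h, 8 at 8 h and 10 at 24 h, with 3, 2 and 1 falling, beside 33.9%, 37.8% and 40.5% of all genes rising. The median log2 fold change was 0.49, 0.53 and 0.69. Itgb3, the beta3 integrin subunit that pairs with the alphaV subunit, rose from 10.4 ± 1.13 to 74.7 ± 2.30 CPM at 4 h (log2 2.84 ± 0.06, adjusted p = 1.34e-22). At 8 h it went from 4.27 ± 0.15 to 41.2 ± 0.73 CPM (3.27 ± 0.07, 1.63e-22). Plgrkt, the dedicated transmembrane plasminogen receptor, went the other way and was the gene that fell at 24 h, from 65.5 ± 3.77 to 34.6 ± 0.40 CPM (-0.92 ± 0.06, 2.14e-13). Hmgb1 and Actb were the other genes that fell at 4 h (-0.185 and -0.19 on the log2 scale), and both were higher at 24 h (0.24 and 0.28). Krt8, counted as rising at each time, was low throughout, at 0.31, 0.043 and 0.13 CPM in vehicle and 0.69, 0.58 and 0.91 CPM with FGF6. It had enough counts to be tested only through the FGF6 libraries, so its direction was fixed by the filter. Plgrkt, Hmgb1, Actb and Krt8 were named after their values were seen.

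Among 12 tested of 13 genes listed as endocytic relatives and partners of Lrp1, 7 rose and 5 fell at 4 h, 5 rose and 6 fell at 8 h, and 6 rose and 5 fell at 24 h, with medians of 0.22, -0.05 and 0.13 on the log2 scale. Of all genes 75.7%, 82.1% and 83.4% were called. Without vehicle replicate 3, 7 of the list rose and 5 fell at 24 h. Lrpap1, the gene of the chaperone RAP that escorts LRP1 through the secretory pathway, fell at each time, from 61.4 ± 0.65 to 40.2 ± 1.65 CPM at 4 h and, by 24 h, from 87.4 ± 4.93 to 30.8 ± 0.80 CPM (log2 -1.505 ± 0.05, adjusted p = 1.44e-19). Mrc2, the gene of the uPAR-associated collagen receptor, fell from 399.9 ± 12.7 to 263.5 ± 7.37 CPM at 24 h (-0.60 ± 0.04, 6.39e-14). Both were named after their values were seen.

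Of 15 genes for proteins that plasmin cuts or activates, 12 were tested, and 8 rose and 2 fell at 4 h, 8 rose and 4 fell at 8 h, and 7 rose and 5 fell at 24 h, with medians of 0.33, 0.85 and 0.50. The shares of all genes called were 75.7%, 82.1% and 83.4%. Mmp10, counted as rising at each time, was at 0 CPM in vehicle and 0.18, 0.23 and 0.48 CPM with FGF6. It had enough counts to be tested only through the FGF6 libraries, so its direction was fixed by the filter. Mmp10 was named after its values were seen. The matrix metalloproteinase genes went both ways. Mmp13, a collagenase gene, rose from 1.22 ± 0.20 to 6.68 ± 0.52 CPM at 4 h (log2 2.46 ± 0.13, adjusted p = 2.52e-14), with log2 values of 3.02 ± 0.13 (1.55e-16) at 8 h and 3.52 ± 0.13 (3.36e-18) at 24 h. Mmp3, the gene of stromelysin 1, rose from 0.73 ± 0.08 to 2.79 ± 0.32 CPM at 4 h (1.93 ± 0.20, 8.60e-09) and at 24 h from 0.19 ± 0.08 to 11.1 ± 1.94 CPM (5.86 ± 0.22, 7.37e-18). Mmp2, the gene of gelatinase A, fell from 284.8 ± 12.04 to 21.1 ± 0.78 CPM at 24 h (-3.75 ± 0.06, 1.21e-25) and was named after its values were seen. Hgf, the gene of a growth factor made as an inactive precursor that serine proteases cut, rose from 17.2 ± 1.16 to 84.1 ± 6.56 CPM at 24 h (2.29 ± 0.07, 8.09e-20).

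Of 7 genes at the start of clotting and its brakes, 4 rose and 2 fell at 4 h, 4 rose and 3 fell at 8 h, and 3 rose and 3 fell at 24 h, with medians of 0.53, 0.51 and 0.06, beside 75.7% to 83.4% of all genes called. F3, the gene of tissue factor, which starts the clotting cascade, fell from 552.6 ± 49.6 to 200.7 ± 9.21 CPM at 4 h (log2 -1.46 ± 0.05, adjusted p = 3.54e-18) and from 343.9 ± 4.56 to 30.9 ± 1.86 CPM at 24 h (-3.48 ± 0.06, 3.72e-25). Thbd, the gene of thrombomodulin, which turns thrombin into an anticoagulant, rose from 346.0 ± 8.66 to 641.4 ± 16.8 CPM at 4 h (0.89 ± 0.04, 7.86e-16), and was named after its values were seen. Of the rest, F2rl1 (log2 1.93 at 4 h) and Procr rose and F2r fell at each time. Tfpi2 rose at 4 and 8 h, and Tfpi fell at 8 h, with overlapping libraries, and at 24 h (-0.59).

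The other serpins were counted beside Serpinb2, whose direction at 4 and 8 h was fixed by the choice of the set. Of 64 further genes of the table with a serpin symbol, 25 were tested, and 15 fell at 4 h, 22 at 8 h and 21 at 24 h, while 2, 2 and 3 rose. The shares of all genes that fell were 41.8%, 44.4% and 42.9%. Their median fell by 0.57 on the log2 scale at 4 h and by 1.25 at 8 h. At 24 h it was -4.07 as fitted and -2.28 when 7 genes with at most 3 counts in each library of a group were set at the bound that the floor allows and 1 gene at the floor in both groups was left out. Of the 21 genes that fell at 24 h, all but Serpinb9f did so at least 2-fold with an adjusted p under 0.05, which 15.3% of all genes met. Serpina3e-ps, Serpinb6b, Serpinb9d and Serpinb9f had enough counts to be tested only through the vehicle libraries. Their direction at each time was thus fixed by the filter, and they were named after their values were seen. The first of them were at 0.61, 0.55 and 0.29 CPM in vehicle at 24 h and at 0, 0.024 and 0 CPM with FGF6. Serpinb9f was at the floor in both groups (0.082 and 0 CPM) with overlapping libraries, so its fold has no support, and the counts at 24 h were the same without vehicle replicate 3. The genes that rose were Serpinb6a, Serpinf2 and, at 24 h, Serpini1, named after their values were seen. Serpinf2 had 1 to 11 counts per library, so its rises rest on few counts, and its groups overlapped at 24 h (edgeR, adjusted p = 0.147). It had enough counts to be tested only through the FGF6 libraries, so its direction was fixed by the filter. Serpinb6a, the most abundant of the genes that rose, went from 267.5 ± 2.67 to 354.2 ± 11.5 CPM at 24 h (0.41 ± 0.04, adjusted p = 2.95e-10).

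The largest falls by the rule for named genes were those of the Serpina3 cluster and Serpinb1a. Serpinb1a, the gene of a neutrophil protease inhibitor, fell from 4.52 ± 0.40 to 1.22 ± 0.08 CPM at 4 h (log2 -1.88 ± 0.18, adjusted p = 1.60e-09) and from 3.96 ± 0.25 to 0.35 ± 0.11 CPM at 8 h (-3.47 ± 0.23, 8.37e-13). Serpina3i went from 8.43 ± 1.19 to 0.63 ± 0.04 CPM at 8 h (-3.74 ± 0.19, 3.28e-15). Serpina3f was at 38.7 ± 4.52 and 41.0 ± 4.44 CPM at 4 h, where it did not pass the test (0.469), and at 24 h fell from 1010 to 1385 counts per library to 1 to 20 (-7.11 ± 0.22, 1.23e-19). Serpina3c fell from 6.20 ± 0.25 to 2.16 ± 0.53 CPM at 4 h (-1.499 ± 0.16, 6.54e-09) and, at 8 h, from 5.21 ± 0.52 to 0.27 ± 0.08 CPM (-4.24 ± 0.24, 2.71e-14), and at 24 h it held 226 to 281 counts in vehicle and 0 to 3 with FGF6. Serpina3h held 135 to 196 counts in vehicle at 24 h and 0 to 2 with FGF6. The Serpina3 genes are near-identical copies in tandem, so how reads were shared among them in counting is uncertain.

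Other annexins and S100 genes, gathered by symbol, went both ways. Of 30, 20 were tested, and 5 rose and 8 fell at 4 h, 8 rose and 9 fell at 8 h, and 7 rose and 11 fell at 24 h, with medians of 0.02, -0.11 and -0.15. Of all genes, 33.9%, 37.8% and 40.5% rose and 41.8%, 44.4% and 42.9% fell. One of the 20, S100pbp, shares the name and not the family. S100b, counted as falling at each time, was at 2.50 CPM in vehicle and 0.22 CPM with FGF6 at 24 h. It had enough counts to be tested only through the vehicle libraries, so its direction was fixed by the filter. S100b was named after its values were seen. Without vehicle replicate 3 at 24 h, 7 rose and 10 fell.

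**Figure D5:**
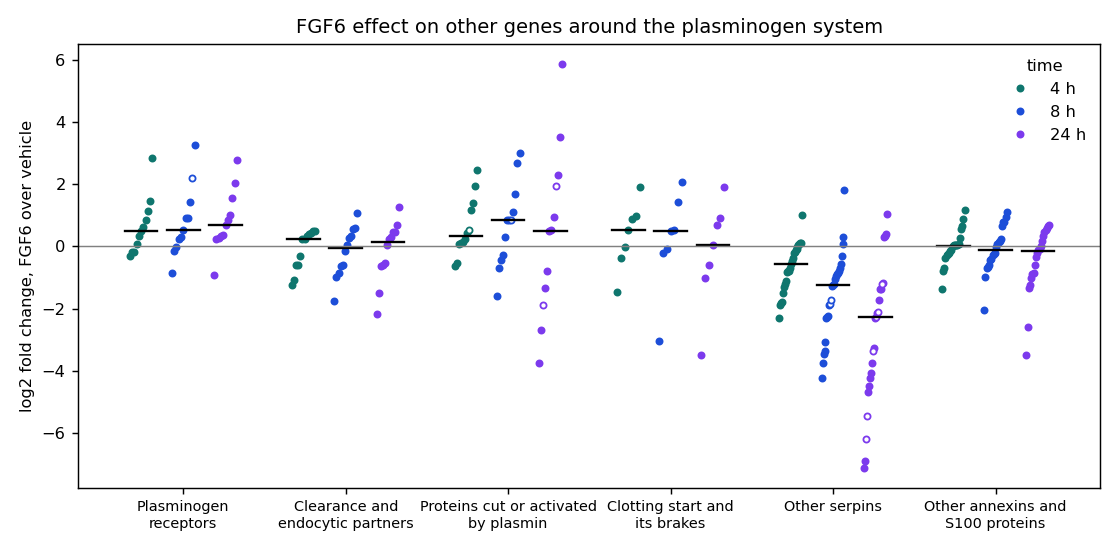
Log2 fold change of FGF6 over vehicle at 4, 8 and 24 h for the tested genes of 6 lists, a point per gene, with lines at the medians. Open points are genes with at most 3 counts in each library of a group, drawn at the bound that the floor of detection allows. The medians of the other serpins were -0.57, -1.25 and -2.28, those of the plasminogen receptors 0.49, 0.53 and 0.69.

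Serpinb2 and Plaur are also known from macrophages and keratinocytes, so markers of those cells were read in the same libraries. Of 8 macrophage markers, Adgre1, Ptprc and Itgam had at most 3 counts in any library. The summed level of the 8 was 15.0 to 16.3 CPM in vehicle and 19.8 to 20.9 CPM with FGF6 at 4 h, mostly from Cd68 (11.1 and 16.5 CPM), 11.9 to 13.2 and 16.0 to 16.4 CPM at 8 h, and 8.08 to 9.53 and 15.5 to 16.5 CPM at 24 h, where Mrc1 went from 0.76 to 12.3 CPM. Other macrophage markers were lower with FGF6, with Csf1r at 3.65 and 1.41 CPM at 4 h and, at 24 h, Cd68 at 5.83 and 3.24 CPM and Lyz2 at 0.91 and 0.036 CPM. The 5 keratinocyte and epithelial markers summed to at most 1.58 CPM in any library, with Krt14 at 3 counts or fewer throughout, and at 4 h the sum was 1.15 to 1.26 CPM with FGF6 against 0.16 to 0.34 CPM in vehicle. That difference was mostly Krt18 (0.86 against 0.097 CPM), while Krt5 and Krt14 were at 0 in both groups and Epcam was at 0.052 against 0.054 CPM. The 6 endothelial markers summed to 2.20 to 3.27 CPM in vehicle and 2.92 to 3.95 CPM with FGF6 at 4 h, and to 1.63 to 2.10 and 4.59 to 6.237 CPM at 24 h, where Cdh5 went from 0.058 to 3.59 CPM. The rise of the sum at 24 h was mostly Cdh5. Kdr was then at 0.82 and 1.09 CPM, Vwf at 0.70 in both groups and Tek at 0.18 and 0 CPM. Pecam1 was at 0.046 and 0.096 CPM and Tie1 at 0 and 0.037 CPM. Of 7 mature adipocyte markers, Lep was at 0 and Cfd and Cidea at 3 counts or fewer, and the sum, mostly Fabp4, was 98.5 to 104.2 CPM in vehicle and 88.8 to 97.0 CPM with FGF6 at 4 h, and 151.0 to 174.0 and 64.0 to 70.5 CPM at 24 h. Ucp1 went the other way, from 0 CPM in vehicle to 0.74 CPM with FGF6 at 24 h. Adipoq and Plin1 went from 0.61 and 0.86 CPM to 0 CPM at that time. The part of these markers in the results was not tested. In bulk RNA, more cells of a type and more RNA per cell cannot be told apart.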

How the data were processed

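Total RNA of the 18 libraries was sequenced by the authors, aligned to mouse GRCm38 with STAR and counted per gene with featureCounts of the Subread package on a GENCODE annotation; versions of these tools and the strand setting are not given in the sources used here. The deposited table holds raw counts, with no normalization. The 9 genes and all gene lists were chosen with earlier results of these data known, and 1 further serpin is not reported here.

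Gene IDs were matched to GENCODE M21 (47310 of 48023, 98.5%), and exonic lengths and coordinates were taken from it. Genes were kept with filterByExpr, leaving 15071. Counts were scaled by TMM and fitted with a mean for each of the 6 groups in edgeR 4.0.16 (R 4.3.3), with the quasi-likelihood test, Benjamini-Hochberg adjustment over all genes tested and a threshold of 0.25, as in the study, or 0.05 with at least 2-fold. The common biological coefficient of variation was 0.0458. CPM are counts over the TMM-scaled library total, and SEs are of log2 fold changes. An exact permutation test of 3 against 3 libraries cannot go below p = 0.1 and was not used. Named genes are the 9, the 3 largest rises and falls per time in the lists other than the FGF response genes, which only checked the treatment (adjusted p under 0.05, at least 2-fold and 1 CPM) and the 5 genes closest to Serpinb2 by Pearson correlation of log2(CPM + 0.5). Scripts were checked on simulated counts. Alternatives were limma-voom (limma 3.58.1), DESeq2 1.42.0, other scalings and filters, fits of only the libraries compared, a replicate block and leaving out each library. The 250 bases before each start came from RefSeq. Intervals and floors cover counting error or the spread between libraries only.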

Additional observations from a re-analysis of the deposited data

Results flagged for a closer look

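The effect of FGF6 differed between times, by edgeR's test of the difference itself (Benjamini-Hochberg adjusted p under 0.05 over all genes, a level met by 30.6% of all genes for 8 against 4 h and 45.1% for 24 against 8 h), in 10 cases among the 8 genes entered by family. All values are differences of log2 fold changes. Between 8 and 4 h the effect was higher for Plau (0.58) and Plaur (0.44), and lower for Plat (-0.15) and Serpinf1 (-0.20). For Plat this was a smaller rise, and for Serpinf1 a fall that was called at 8 h and not at 4 h. Between 24 and 8 h the effect was lower for Plat (-1.06), S100a10 (-0.53), Serpinf1 (-0.45), Anxa2 (-0.39), Plaur (-0.27) and Lrp1 (-0.24). Plat and S100a10 were called with opposite signs at 8 and 24 h, and so was Anxa2, whose call at 24 h was lost without some libraries. No explanation was tested.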

How the results depend on the processing

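A 2-fold threshold beside the adjusted p of 0.25 left 1829 genes called at 4 h, 2870 at 8 h and 3553 at 24 h. Among the 8 genes entered by family it left Plaur alone at each time. Library sizes without TMM moved the median of all genes at 4 h by -0.10 on the log2 scale, and changes of Plau (-0.11, adjusted p = 0.1274), Serpinf1 (-0.12, adjusted p = 0.00226) and Serpine2 (-0.0648) at 4 h were near that shift, which took the number of the 8 genes called from 5 to 7 (4 higher, 3 lower); calls at 4 h were then 3962 higher and 7704 lower, against 5111 and 6301. Upper-quartile factors gave Serpinf1 -0.08 (0.0419) and Serpine2 -0.0202 at 4 h. Changes near 0 turned sign: Plau at 4 h was 0.019 with DESeq2, 0.0031 without a filter, 0.023 with at least 10 counts in every library and 0.033 with only the libraries compared; Serpinf1 at 4 h was 0.0008 with DESeq2, 0.0044 with at least 10 counts and 0.014 with only the libraries compared. The difference from 4 to 8 h of FGF6 was 0.0202 for Serpine2 with library sizes, and that from 8 to 24 h was -0.0203 for Anxa2 without a filter and -0.017 with at least 10 counts. Serpinb2 fell below that filter. DESeq2 lost the calls of Lrp1 at 8 h (0.4395) and Anxa2 at 24 h (0.4929). Leaving out 1 library gave ranges of -0.051 to 0.049 for Plau, -0.071 to 0.13 for Serpine2 and -0.031 to 0.011 for Serpinf1 at 4 h, -0.22 to 0.088 for Serpine2 at 8 h, -0.044 to 0.011 for Anxa2 at 24 h, -0.26 to 0.050 for Serpine2 in the difference of effects between 8 and 4 h, and, over time, -0.077 to 0.20 for Serpine2 in vehicle and -0.21 to 0.097 with FGF6 (4 to 8 h) and -0.11 to 0.013 for Plau in vehicle (8 to 24 h). Serpinb2 in vehicle (8 to 24 h, -0.58) was 0.32 without vehicle replicate 1 at 8 h, and its difference of 0.0006 from 4 to 8 h of FGF6 also changed sign; the other directions of the 9 genes were kept in the alternatives run. Same-numbered libraries did not deviate together (correlation -0.0275 to 0.0486), so they share only a number; with a replicate block the calls stayed, save that Lrp1 between 8 and 4 h passed (0.073, adjusted p = 0.2425). Serpinb2 and Serpine2 in vehicle are limited by counts under 100 per library. Leaving vehicle replicate 3 at 24 h out of the list counts was chosen after seeing the data.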
